A study of Mus musculus with 18 samples.

Results

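The glutathione, NRF2 and antioxidant genes are 46 mouse genes of antioxidant defence, chosen by name from a list and read on skin arrays. They comprise 2 regulators (Nfe2l2, which encodes NRF2, and Keap1), 16 glutathione transferases, 18 other NRF2 targets and 10 other antioxidant enzymes. Each gene was represented by the probe set that carries its symbol alone and has the highest mean over all 18 arrays. Of the 46 genes, 36 varied between arrays. The 5 genes Keap1, Gstm3, Nqo1, Gclc and Slc7a11 ranged by less than 0.01 over the 18 arrays and give no information on any group. Gsta1, Prdx1, Prdx6, G6pdx and Prdx5 had no probe set with their symbol alone. On the whole array 6842 of 18193 genes varied. The varying genes comprise 14 of 16 glutathione transferases, 12 of 18 other NRF2 targets, 9 of 10 other antioxidant enzymes and 1 of 2 regulators.

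All 18 arrays carry total RNA of back skin from males of the albino hairless strain HR-1 at a labelled age of 6 weeks, with 6 biological replicates in each of 3 groups. TS_WB mice were tape stripped and also took an extract of winged bean orally, 200 mg/kg/day, given 5 times a week for 5 weeks from 1 week before stripping began, at 20 mg/ml in 0.3% carboxymethylcellulose. TS mice were stripped with cellophane tape 3 times a week for 4 weeks on the left of the back, until water loss through the skin reached 70 to 100 g/m2/h, and NT mice were not stripped. Whether TS and NT mice took the carrier without extract is not stated, and 1 strain and 1 sex limit the model. Values are the deposited log scale values, read as log2, on which 1 unit is a 2-fold change.

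Glutathione is a tripeptide thiol that cells use to reduce peroxides and, through the glutathione transferases, to conjugate electrophiles for export. NRF2 is a transcription factor that binds antioxidant response elements together with small MAF proteins and drives genes of glutathione synthesis, conjugation, thioredoxin and NADPH supply, while KEAP1 marks it for degradation until oxidants or electrophiles modify its cysteines. The epidermis, which meets ultraviolet light, air and chemicals directly, relies on these enzymes.

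The element that NRF2 binds has a core usually written TGACNNNGC, and the promoters of the genes on which the results turn are shown with that core in capitals. Windows run from 250 bases before to 50 bases after the annotated start, are taken from RefSeq on GRCm38.p6, and are printed in the direction of transcription. Both strands were searched for this 1 motif, whose opening letters are also those of the AP-1 site TGACTCA. It was found in 11 of the 38 listed genes that matched a promoter (28.9%), against 3781 of 27025 genes with a promoter on the genome (14.0%) and 4071 of 32851 windows (12.4%). The 11 genes are G6pdx, Gclm, Gsta3, Gstm5, Mgst1, Nfe2l2, Pgd, Prdx1, Sod1, Srxn1 and Txnrd1. Among the groups it was found in 3 of 14 glutathione transferases and 6 of 13 other NRF2 targets. Gsto1 (plus strand, chr19:47854723-47855022) and Mgst2 (plus strand, chr3:51660929-51661228) are shown because they had the largest rises in stripped skin, and Gstm2 (minus strand, chr3:107986371-107986670) because it had the largest fall. Gstm5 (plus strand, chr3:107895604-107895903) is shown as a member of the same class that holds the core, and Gclm (plus strand, chr3:122245307-122245606) as a classical NRF2 target. The core of Gstm5 begins at position -42 from the start, and that of Gclm lies on the opposite strand at position -134.
Gsto1: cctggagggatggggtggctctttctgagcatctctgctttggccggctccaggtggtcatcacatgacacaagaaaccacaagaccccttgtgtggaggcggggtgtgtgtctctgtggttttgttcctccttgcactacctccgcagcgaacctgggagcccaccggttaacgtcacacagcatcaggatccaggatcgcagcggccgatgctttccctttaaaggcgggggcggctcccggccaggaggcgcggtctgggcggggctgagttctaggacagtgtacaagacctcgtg
Mgst2: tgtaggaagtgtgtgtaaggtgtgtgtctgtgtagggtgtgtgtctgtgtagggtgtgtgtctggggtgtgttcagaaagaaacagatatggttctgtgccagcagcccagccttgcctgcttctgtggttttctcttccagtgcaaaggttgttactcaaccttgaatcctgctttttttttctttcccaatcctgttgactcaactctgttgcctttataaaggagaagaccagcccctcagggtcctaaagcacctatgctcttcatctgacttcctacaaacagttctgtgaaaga
Gstm2: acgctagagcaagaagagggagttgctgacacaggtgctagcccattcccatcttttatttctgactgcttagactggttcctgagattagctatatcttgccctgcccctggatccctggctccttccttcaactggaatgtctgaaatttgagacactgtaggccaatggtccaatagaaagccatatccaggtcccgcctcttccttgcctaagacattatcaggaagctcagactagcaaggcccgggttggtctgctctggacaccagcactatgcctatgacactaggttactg
Gstm5: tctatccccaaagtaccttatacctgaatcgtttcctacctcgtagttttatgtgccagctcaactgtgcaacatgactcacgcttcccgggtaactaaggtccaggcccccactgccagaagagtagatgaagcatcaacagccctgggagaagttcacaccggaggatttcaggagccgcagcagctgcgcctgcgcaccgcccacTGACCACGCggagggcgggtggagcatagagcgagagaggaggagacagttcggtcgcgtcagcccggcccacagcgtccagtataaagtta
Gclm: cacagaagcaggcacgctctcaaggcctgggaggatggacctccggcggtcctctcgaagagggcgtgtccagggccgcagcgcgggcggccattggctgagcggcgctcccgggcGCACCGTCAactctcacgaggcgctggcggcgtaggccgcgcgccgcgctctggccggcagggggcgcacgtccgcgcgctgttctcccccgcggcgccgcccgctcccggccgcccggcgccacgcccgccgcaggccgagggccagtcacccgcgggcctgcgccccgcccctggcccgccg
The core letters are absent from the Gsto1, Mgst2 and Gstm2 windows. A match is a description of letters in a window of 300 bases, not a binding site.

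Before the comparisons, some facts of the arrays bear on every value. Of the 45037 probe sets tested, 33091 (73.5%) ranged by less than 0.01. The signal of the 3' end of beta-actin minus that of its 5' end, on control probe sets, was 5.69 ± 0.25 in TS_WB, 0.16 ± 0.07 in TS and -0.51 ± 0.10 in NT (SD, n = 6 each). For Gapdh the difference was 3.70 ± 0.36 in TS_WB, -0.44 ± 0.12 in TS and -0.59 ± 0.11 in NT (SD, n = 6 each). The markers of keratinocytes all varied (15 of 15), with array means of 10.98 to 11.44 in TS_WB, 11.72 to 12.09 in TS and 10.96 to 11.42 in NT. The array NT 5 had a liver marker mean of 14.37, where the lowest of the NT arrays had 7.14. NT 5 was the highest NT array for 10 of the 36 genes, among them Gsta2, Gsta3, Gstm1, Gstp1 and Cat, and the lowest for 3.

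Tape stripping was compared with untouched skin. In TS skin the mu and theta glutathione transferases were lower and Gsto1 and Mgst2 were 3.53-fold and 3.32-fold higher, while the transcript of NRF2 itself did not differ detectably. Of the 36 varying genes 4 rose, 15 fell and 17 did not pass (19 called, 52.8%). Among all 6842 varying genes 40.4% were called, 19.3% higher and 21.1% lower, and among all probe sets 10.1%. A gene was called where limma's Benjamini-Hochberg adjusted p, over the 45037 probe sets, was under 0.05 and the difference was at least 0.01. The median difference was -0.23 over the 36 genes and 0.00 over all varying genes. In bulk skin, fewer cells of a type and less RNA per cell cannot be told apart.

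The transcript of NRF2 was not called. Nfe2l2 lay between 10.57 and 11.04 in TS (median 10.70), against 10.53 to 10.81 in NT (median 10.72). The groups overlapped, and the difference was 0.02 (SE 0.07, limma adjusted p = 1). Keap1 was constant at 8.74 and cannot be compared.

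Among the 14 varying glutathione transferases 3 rose, 8 fell and 3 did not pass, with a median of -0.27. That is 78.6% called, against 40.4% of all varying genes. Gsto1, the omega enzyme with thioltransferase activity, lay between 10.91 and 11.55 in TS (median 11.32), against 9.28 to 9.66 in NT (median 9.49). It was 3.53-fold higher (1.82, SE 0.22, limma adjusted p = 5.52e-05), and the groups did not overlap. Mgst2, a membrane enzyme that can also conjugate glutathione to leukotriene A4, lay between 9.55 and 10.07 in TS (median 9.76), against 7.84 to 8.40 in NT (median 8.02). It was 3.32-fold higher (1.73, SE 0.11, limma adjusted p = 1.13e-07), again with no overlap. Gsta4, an alpha enzyme known for conjugating hydroxynonenal from oxidised lipids, rose by 0.61 (SE 0.15, limma adjusted p = 0.0123), and in a fit of the 12 TS and NT arrays alone it did not pass (limma adjusted p = 0.0551).

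All 3 varying genes of the mu class fell, as did all 3 of the theta class. Gstm2, a mu enzyme, lay between 9.02 and 9.21 in TS (median 9.10), against 10.01 to 10.47 in NT (median 10.36). It was 2.25-fold lower (-1.17, SE 0.08, limma adjusted p = 5.37e-07), and no TS array reached the lowest NT array. Gstm1, another mu enzyme, lay between 9.67 and 10.20 in TS (median 10.03), against 10.60 to 11.22 in NT (median 10.87). It was 1.87-fold lower (-0.90, SE 0.12, limma adjusted p = 9.67e-05), with no overlap, and its probe set is of a kind that can cross-hybridise with close relatives. Gstm5 fell by 0.69 on the log2 scale (SE 0.09, limma adjusted p = 8.46e-05).

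The remaining glutathione transferases had smaller differences. The theta enzymes fell by 0.59 (Gstt1, SE 0.08), 0.28 (Gstt3, SE 0.07) and 0.26 (Gstt2, SE 0.08). The alpha enzyme Gsta3 fell by 0.60 (SE 0.18) and the microsomal Mgst1 fell by 0.12 (SE 0.04). Gsta2 (0.09, SE 0.21), Gstp1 (-0.37, SE 0.14) and Mgst3 (-0.26, SE 0.09) did not pass, and Gstp1 passed with array weights (limma adjusted p = 0.0367) and when constant probe sets were left out (limma adjusted p = 0.026). Mgst1 differed by -0.012 after quantile normalization and did not pass (limma adjusted p = 0.874). Without NT 5 the glutathione transferases counted 3 higher and 7 lower, because Gstt2 (limma adjusted p = 0.0738) and Mgst1 (limma adjusted p = 0.0561) no longer passed and Mgst3 did (limma adjusted p = 0.0103). Gsta2, Gsta3, Gstm1, Gstp1, Gstt1, Gsto1 and Mgst1 were highest in NT on NT 5, where Gsta3 stood at 8.19 and the other NT arrays at 7.05 to 7.50. Without NT 5 the difference of Gsta3 was -0.45 (limma adjusted p = 0.0487) and that of Gstm1 -0.84 (limma adjusted p = 0.000222), both still called. That of Gsta2 was 0.24 (limma adjusted p = 0.576) and that of Gstp1 -0.25 (limma adjusted p = 0.122), neither called.

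**Figure D1:**
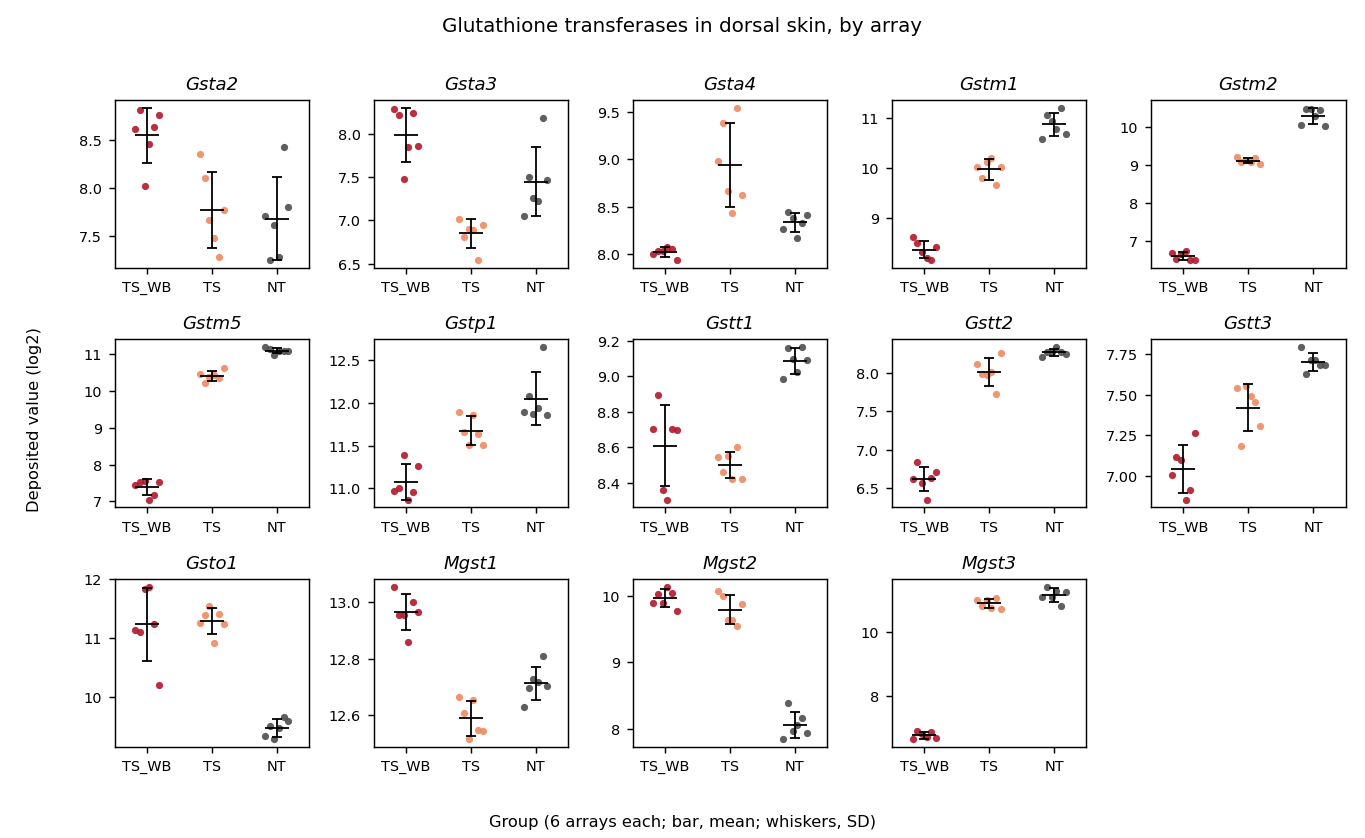
Deposited log2 value (vertical axis) of glutathione transferases on each array of TS_WB, TS and NT skin, with points for the 6 arrays of a group and bars for the mean and SD. Gsto1 and Mgst2 stand higher in TS than in NT on all arrays, and Gstm2 and Gstm1 stand lower.

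The other NRF2 targets held 12 varying genes, of which 1 rose, 5 fell and 6 did not pass, with a median of -0.18. Among all 6842 varying genes 40.4% were called, 19.3% higher and 21.1% lower, and 4076 were not called. The genes usually read as reporters of NRF2 activity were mostly not called, as was the case for most varying genes. Hmox1, which encodes heme oxygenase, lay between 9.51 and 10 in TS (median 9.64), against 9.52 to 10.29 in NT (median 9.80). The groups overlapped, and the difference was -0.20 (SE 0.13, limma adjusted p = 0.43). Gclm, the modifier subunit of the enzyme that begins glutathione synthesis, lay between 9.01 and 9.23 in TS (median 9.09), against 9.02 to 9.47 in NT (median 9.27). It differed by -0.16 (SE 0.09, limma adjusted p = 0.303), with overlapping groups.

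Srxn1, sulfiredoxin, which restores oxidised peroxiredoxins, lay between 8.01 and 8.42 in TS (median 8.37), against 8.05 to 8.73 in NT (median 8.50). It differed by -0.16 (SE 0.11, limma adjusted p = 0.431), with overlapping groups. Txnrd1, the cytosolic thioredoxin reductase, lay between 9.40 and 9.74 in TS (median 9.64), against 9.78 to 10.04 in NT (median 9.96). It fell by 0.35 (SE 0.09, limma adjusted p = 0.0178), and the groups did not overlap. The reporters Nqo1 (7.50), Gclc (8.81) and Slc7a11 (7.02) held the same value on every array and give no information.

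Ephx1, the microsomal epoxide hydrolase, had the largest fall of this group. It lay between 9.57 and 9.99 in TS (median 9.78), against 10.79 to 11.02 in NT (median 10.93). It was 2.23-fold lower (-1.16, SE 0.09, limma adjusted p = 1.73e-06), with no overlap. Taldo1, transaldolase of the pentose phosphate pathway, fell by 0.69 (SE 0.10, limma adjusted p = 0.000168), and Pgd, another enzyme of that pathway, fell by 0.28 (SE 0.07). Gpx2, a glutathione peroxidase of epithelia, fell by 0.28 (SE 0.09). Txn1, thioredoxin, was the only one that rose, by 0.28 (SE 0.09, limma adjusted p = 0.0406), and without NT 5 the difference was 0.27 and did not pass (limma adjusted p = 0.0749). Gpx2 did not pass without NT 5 either (limma adjusted p = 0.0923).

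Of the 9 varying other antioxidant enzymes 2 fell and 7 did not pass (22.2% called, against 40.4% of all varying genes). Gpx3, the secreted glutathione peroxidase, fell by 0.72 (SE 0.18, limma adjusted p = 0.0124), and Cat, catalase, fell by 0.42 (SE 0.13, limma adjusted p = 0.0441). Cat did not pass without NT 5 (limma adjusted p = 0.0829), the array on which it was highest at 11.50. Gpx4, which reduces lipid hydroperoxides in membranes, lay between 12.04 and 12.37 in TS (median 12.30), against 12.46 to 13.09 in NT (median 12.72). These groups did not overlap, but the difference of -0.47 (SE 0.25) did not pass (limma adjusted p = 0.261), although it passed in a fit of the 12 TS and NT arrays alone (limma adjusted p = 0.0084). On the probe sets read, the superoxide dismutases Sod1 (-0.20), Sod2 (-0.16) and Sod3 (-0.28) did not pass. Sod1 and Sod2 each had 3 varying probe sets, of which 1 was called lower and 2 were not called. With the mean of its varying probe sets Sod2 differed by -0.26 and passed (limma adjusted p = 0.00351).

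The largest rise and the largest fall among the 36 genes in TS skin were both of glutathione transferases (Gsto1 and Gstm2), closely followed by the fall of Ephx1, and whether they differ as a group from the other NRF2 targets was not tested. TS and NT arrays did not overlap for 13 of the 36 genes (36.1%), against 26.1% of all varying genes. Without NT 5 the totals were 3 higher and 12 lower. Beside these changes the keratinocyte markers summed to 175.81 to 181.34 in TS and 164.44 to 171.30 in NT, with 10 of 15 higher and 1 lower. The skeletal muscle markers summed to 166.17 to 173.56 in TS and 193.33 to 216.71 in NT, with 13 of 16 lower, and the adipocyte markers to 93.47 to 98.92 in TS and 104.87 to 111.60 in NT, with 8 of 10 lower. The hair follicle markers summed to 82.14 to 102.26 in TS and 102.16 to 110.12 in NT, with 9 of 11 lower and 0 higher. The beta-actin difference between ends was 0.66 higher in TS than in NT (exact permutation test, two-sided, p = 0.00216, adjusted 0.00275). The part of these measures in the changes was not tested.

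**Figure D2:**
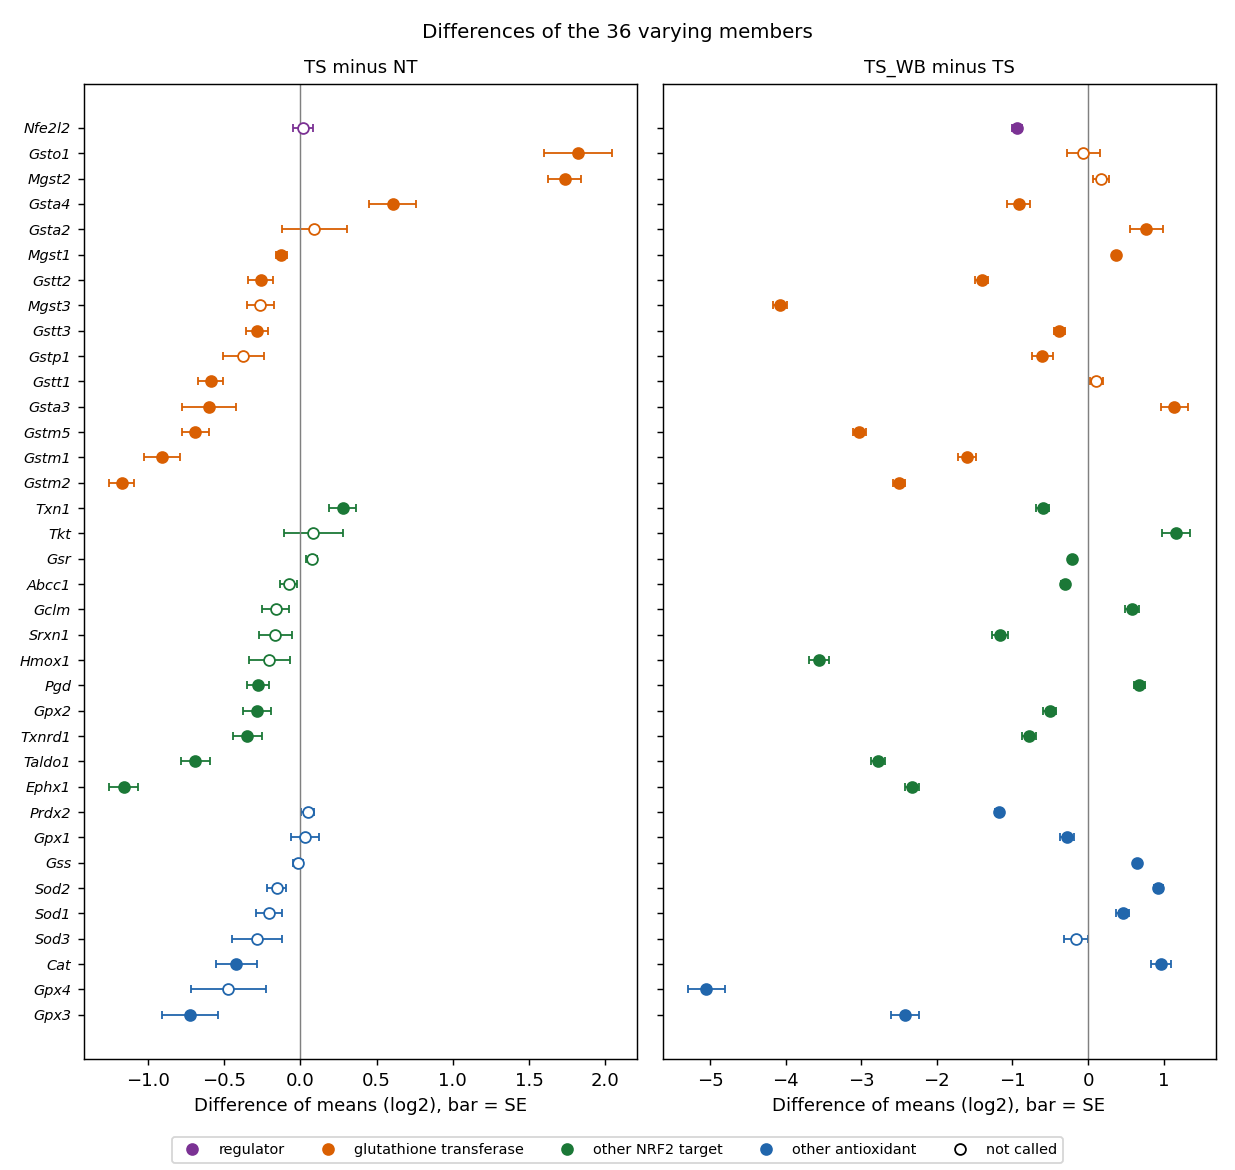
Difference of group means in log2 units (horizontal axis, bars are SE) for each of the 36 varying genes, TS minus NT at left and TS_WB minus TS at right, filled where called and open where not called. In TS minus NT, Gsto1 (1.82) and Mgst2 (1.73) lie farthest right and Gstm2 (-1.17) and Ephx1 (-1.16) farthest left, and in TS_WB minus TS, Gpx4 (-5.05) lies farthest left.

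TS_WB was compared with TS to ask how skin differed with the extract. In TS_WB skin Gpx4, Mgst3, Hmox1, Gstm5 and Taldo1 were lower, with log2 differences of -5.05 to -2.78, and Nfe2l2 was lower too, while Gclm, Mgst1, Gsta2 and 7 others were higher. Those 7 (Gsta3, Pgd, Tkt, Gss, Sod1, Sod2 and Cat) each had another varying probe set that fell, so their direction holds only for the probe set read. Gpx4, Mgst3, Hmox1, Gstm5, Taldo1, Nfe2l2, Gclm, Mgst1 and Gsta2 each had 1 varying probe set. Their direction could not be checked on another. Of the 36 genes 10 rose, 22 fell and 4 did not pass (88.9% called). Among all varying genes 87.7% were called, 48.4% higher and 39.2% lower, and among all probe sets 23.6%, so the share called is close to the background. The median was -0.44 over the 36 genes, against 0.16 over all varying genes. The beta-actin difference between 3' and 5' ends, 5.69 in TS_WB against 0.16 in TS, stood beside these changes (exact permutation test, two-sided, p = 0.00216, adjusted over 33 array measures 0.00275). Skeletal muscle markers summed to 116.38 to 137.97 in TS_WB and 166.17 to 173.56 in TS, and keratinocyte markers to 164.66 to 171.66 in TS_WB and 175.81 to 181.34 in TS. Of the muscle markers 12 of 16 were lower, and of the keratinocyte markers 8 of 15 were lower and 3 higher. Hair follicle markers mostly went the other way, with 6 of 11 higher and 2 lower. The part of these measures in the result was not tested.

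Nfe2l2 lay between 9.68 and 9.85 in TS_WB (median 9.79), against 10.57 to 11.04 in TS (median 10.70). It was 1.92-fold lower (-0.94, SE 0.07, limma adjusted p = 5.2e-09), and the groups did not overlap.

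Among the glutathione transferases 3 rose, 8 fell and 3 did not pass, with a median of -0.49. That is 78.6% called, against 87.7% of all varying genes. Mgst3, a microsomal enzyme with peroxidase activity, lay between 6.67 and 6.91 in TS_WB (median 6.78), against 10.68 to 11.03 in TS (median 10.88). It fell by 4.08 (SE 0.09, limma adjusted p = 2.08e-15), with no overlap, and the TS_WB mean lies under the array median of 6.90, so no fold is given. Gstm5 lay between 7.04 and 7.56 in TS_WB (median 7.49), against 10.20 to 10.61 in TS (median 10.40). It was 8.13-fold lower (-3.02, SE 0.09, limma adjusted p = 8.52e-14), with no overlap.

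The other falls were those of Gstm2 (-2.50, SE 0.08), Gstm1 (-1.60, SE 0.12, with another probe set that rose by 0.44), Gstt2 (-1.41, SE 0.08), Gsta4 (-0.92, SE 0.15), Gstp1 (-0.60, SE 0.14) and Gstt3 (-0.38, SE 0.07). Every TS_WB array of Gstm2 (6.51 to 6.75) and Gstt2 (6.34 to 6.83) lay under the array median of 6.90, so the sizes of these falls are uncertain. The rises were those of Gsta3 (1.14, SE 0.18), Gsta2 (0.77, SE 0.21) and Mgst1 (0.37, SE 0.04). Gsto1 (-0.06, SE 0.22), Mgst2 (0.17, SE 0.11) and Gstt1 (0.11, SE 0.08) did not pass, so the 2 genes that rose most in TS were not called here. The other varying probe set of Gsto1 rose by 0.75 (SE 0.12, limma adjusted p = 5.22e-05). After quantile normalization Mgst2 (0.26, limma adjusted p = 0.0243) and Gstt1 (0.22, limma adjusted p = 0.0134) passed as higher.

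The other NRF2 targets held 3 that rose and 9 that fell, with a median of -0.55 (100% called, against 87.7% of all varying genes). Hmox1 lay between 5.91 and 6.31 in TS_WB (median 6.12), against 9.51 to 10 in TS (median 9.64). It fell by 3.56 (SE 0.13, limma adjusted p = 2.23e-12), to a level under the array median of 6.90. Taldo1 lay between 7.69 and 8.20 in TS_WB (median 7.89), against 10.49 to 10.89 in TS (median 10.76), and was 6.87-fold lower (-2.78, SE 0.10, limma adjusted p = 7.88e-13). In both genes every TS_WB array lay below every TS array.

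Gclm went the other way. It lay between 9.41 and 9.90 in TS_WB (median 9.69), against 9.01 to 9.23 in TS (median 9.09), and rose by 0.58 (SE 0.09, limma adjusted p = 4.06e-05), with no overlap. Srxn1 lay between 6.95 and 7.32 in TS_WB (median 7.14), against 8.01 to 8.42 in TS (median 8.37), and fell by 1.16 (SE 0.11, limma adjusted p = 1.58e-07). Txnrd1 lay between 8.55 and 9.20 in TS_WB (median 8.80), against 9.40 to 9.74 in TS (median 9.64), and fell by 0.78 (SE 0.09, limma adjusted p = 3.03e-06). The classical targets thus differed in both directions, each on its only varying probe set, so no direction could be checked on another. Ephx1 fell by 2.33 (SE 0.09), and Tkt (transketolase) and Pgd rose by 1.16 (SE 0.19) and 0.68 (SE 0.07).

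**Figure D3:**
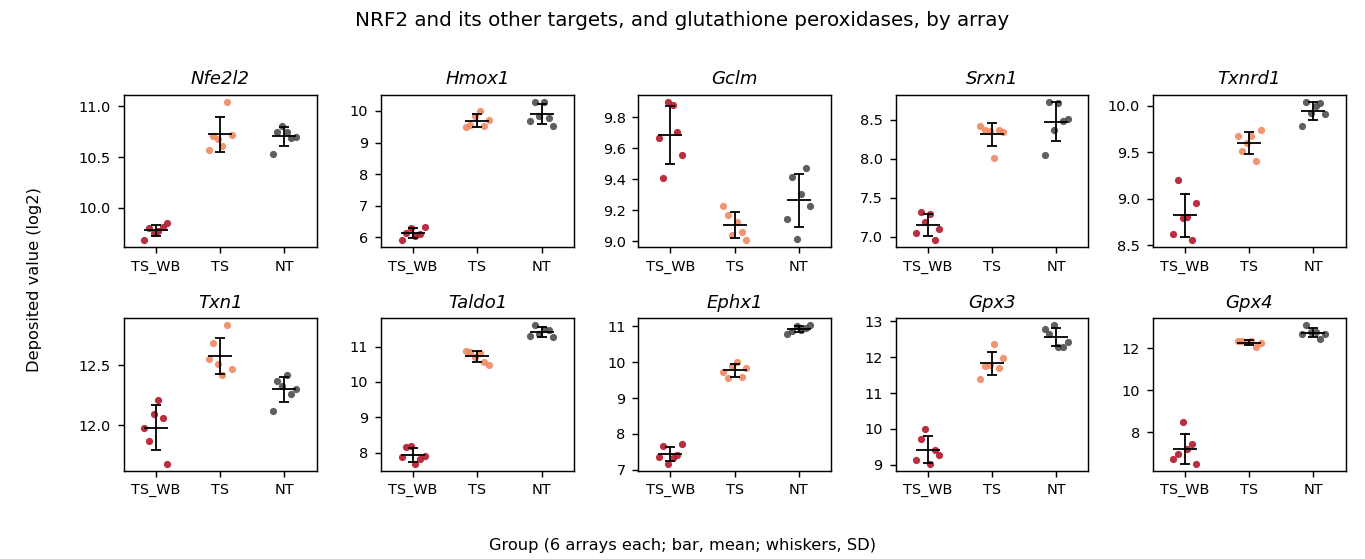
Deposited log2 value (vertical axis) of NRF2 (Nfe2l2), 7 of its other targets and 2 glutathione peroxidases on each of the 6 arrays of TS_WB, TS and NT skin, with bars for the mean and SD. Gclm is higher in TS_WB than in TS, while Hmox1, Taldo1, Ephx1 and Gpx4 are lower in TS_WB on all arrays.

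Among the other antioxidant enzymes 4 rose, 4 fell and 1 did not pass, with a median of -0.16. Here 88.9% were called, against 87.7% of all varying genes. Gpx4 lay between 6.51 and 8.50 in TS_WB (median 7.08), against 12.04 to 12.37 in TS (median 12.30). It fell by 5.05 (SE 0.25, limma adjusted p = 5.82e-11), and every TS_WB array lay far below every TS array. No fold is given, since the lowest TS_WB arrays lie under the array median of 6.90. Gpx3 fell by 2.42 (SE 0.18) and Prdx2, a peroxiredoxin, fell by 1.18 (SE 0.04). Rises were those of Cat (0.97, SE 0.13), the mitochondrial dismutase Sod2 (0.93, SE 0.06), the glutathione synthetase Gss (0.65, SE 0.03) and the cytosolic dismutase Sod1 (0.46, SE 0.08). The choice of probe set for these genes used the TS_WB arrays too. On the probe sets of highest mean over NT and TS alone, Cat (-2.03), Gss (-0.55) and Sod1 (-0.84) fell.

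The direction in TS_WB depended on which probe set of a gene was read. Of the 36 genes, 10 had several varying probe sets, and for 8 of these some sets rose and others fell in TS_WB against TS, while no gene had opposite calls in TS against NT. Cat rose by 0.97 on one probe set and fell by 2.03 on another, Pgd rose by 0.68 and fell by 3.05, and Tkt rose by 1.16 and fell by 3.16. Gsta3 rose by 1.14 and fell by 1.25, and Gss rose by 0.65 and fell by 0.55. The probe sets read for Pgd, Tkt and Gss are, like that of Gstm1, of a kind that can cross-hybridise with close relatives. Sod1 rose by 0.46 and 0.67 and fell by 0.84, Sod2 rose by 0.93 and 0.30 and fell by 0.37, and Gstm1 fell by 1.60, and on a second probe set fell by 1.47, and rose by 0.44. In TS against NT the 2 probe sets of Gsto1 rose by 1.82 and 1.62.

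**Figure D4:**
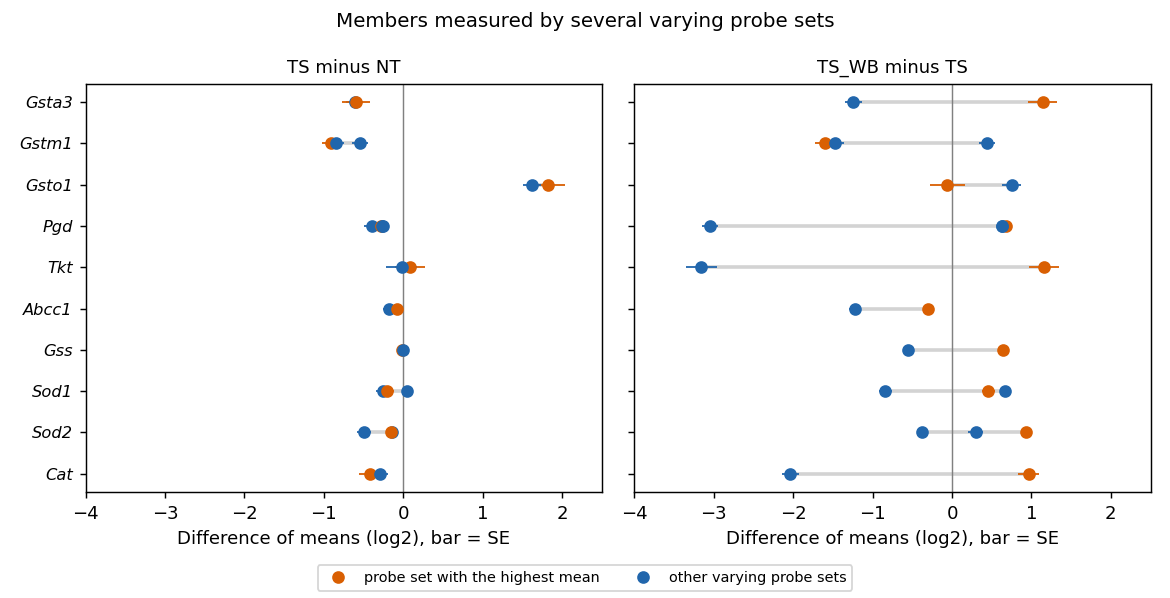
Difference of group means in log2 units (horizontal axis) on every varying probe set of the 10 genes with several, TS minus NT and TS_WB minus TS, with the probe set of highest mean in orange and the others in blue. In TS_WB minus TS, Cat (0.97 and -2.03) and Pgd (0.68 and -3.05) lie on both sides of 0.

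TS_WB was also compared with NT, and it shares the TS_WB and NT arrays with the comparisons above, so its values are given side by side only. Of the 36 genes 12 rose, 23 fell and 1 did not pass (97.2% called, against 88.2% of all varying genes, 46.9% higher and 41.3% lower, and 23.7% of all probe sets). Of the 10 genes with several varying probe sets 7 had opposite calls, and with the mean of a gene's varying probe sets 5 of the 36 were higher and 27 lower, with Gsta3, Pgd, Tkt, Sod1 and Cat turned to below 0. The largest differences were the falls of Gpx4 (-5.52, SE 0.25), Mgst3 (-4.34, SE 0.09), Hmox1 (-3.76, SE 0.13), Gstm5 (-3.71, SE 0.09) and Gstm2 (-3.67, SE 0.08). The TS_WB means of Mgst3, Hmox1 and Gstm2 and some TS_WB arrays of Gpx4 lay under the array median of 6.90, so the sizes of those falls are uncertain. Mgst2 (1.90, SE 0.11) and Gsto1 (1.76, SE 0.22) were higher, as they were in TS. The glutathione transferases held 5 that rose and 8 that fell, with Gsta4 (-0.31, SE 0.15) not called, though it passed in a fit of the 12 arrays alone (limma adjusted p = 0.000193). Beside these differences the beta-actin difference between ends was 6.19 higher in TS_WB than in NT, and the marker means differed by -4.69 for skeletal muscle, -2.32 for adipocytes and -1.71 for macrophages (two-sided exact permutation p = 0.00216 in every case, adjusted 0.00275). The keratinocyte marker mean differed by -0.04 (two-sided exact permutation p = 0.725), with 7 of 15 markers higher and 7 lower. Their part was not tested.

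Further genes of glutathione and oxidant handling were taken from a list of 81, of which 53 varied. In TS against NT 5 rose, 19 fell and 29 did not pass, with a median of -0.10. That is 45.3% called, against 40.4% of all varying genes (19.3% higher and 21.1% lower, median 0.00). Ggct, a cyclotransferase that acts on gamma-glutamyl amino acids, averaged 11.44 ± 0.38 in TS and 9.85 ± 0.28 in NT (SD, n = 6 each), a rise of 1.60 (SE 0.17). Cybb and Cyba, the subunits of the phagocyte NADPH oxidase, fell by 1.58 (SE 0.30) and 1.01 (SE 0.24), and Gstz1, the zeta transferase, fell by 1.43 (SE 0.12). Beside Cybb and Cyba, the 12 macrophage markers summed to 128.55 to 133.67 in TS and 134.25 to 140.50 in NT, with 8 lower and 1 higher, and their part was not tested. In TS_WB against TS 16 rose, 30 fell and 7 did not pass (86.8% called, against 87.7% of all varying genes), and the largest falls were those of the glutaredoxin Glrx (-3.43), Cyba (-3.29), Park7 (-2.85) and the selenoprotein Selenok (-2.63). In TS_WB against NT 15 rose, 34 fell and 4 did not pass (92.5% called, against 88.2% of all varying genes), with the largest falls in Cyba (-4.30), Gstz1 (-3.67), Park7 (-3.33) and Blvrb, a biliverdin reductase (-3.21). The TS_WB mean of Gstz1 (6.28) lay under the array median of 6.90, so the size of its fall is uncertain.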

How the data were processed

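Skin RNA (100 ng) was measured on Affymetrix mouse arrays, per the labels. The authors deposited 1 value per probe set and array, taken as log2 from its range of 2.93 to 19.04; the base of the logarithm, the summarising method and the normalization are not given in the sources used here. Control probe sets (64) were left out. One limma fit (version 3.58.1, R 4.3.3) of the 3 groups without covariates gave each difference, with p-values adjusted by Benjamini-Hochberg over 45037 probe sets for each comparison. An exact two-sided permutation test (scipy 1.17.1) compared array measures, and 0.00216 is the smallest p it can give with 6 arrays a group. No fold is given where the lower mean, or an array of the lower group, lies under the array median. Tested on simulated data for TS minus NT with 45037 probe sets, the fit called 63 of 100 probe sets changed by 0.5, 88 of 100 changed by 1 and 3 of 44837 unchanged ones. The unchanged ones were not split into varying and constant. On the arrays 33091 of the 45037 probe sets were constant, so the last count gives no rate of false calls for varying probe sets. The members and lists were chosen with earlier results of these data known. Per-array ranges are given for the regulators, the classical NRF2 targets and the 5 called members with the largest difference between TS and NT and between TS_WB and TS, every varying glutathione transferase is named, and pathway genes are the 4 with the largest called difference. Arrays of a group are labelled biological replicates, with no further detail on separate animals. Alternatives were quantile normalization, median centring, other choices of probe set, the replicate block, a filter on dim probe sets, array weights, fits of 12 arrays, varying probe sets alone and leaving out NT 5; scanner files were not used here.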

Additional observations from a re-analysis of the deposited data

Results flagged for a closer look

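Of 108 groups of 6 arrays examined, 7 held an array whose gap to the nearest other array, divided by the range of the group, was above the 95% critical value of Dixon for 6 arrays. Chance gives about 1 such group in 20. Nfe2l2 stood at 11.04 on TS 5, where the next TS array had 10.71. Gstp1 stood at 12.66 on NT 5, the array with the high liver markers, where the next had 12.08. Srxn1 stood at 8.01 on TS 4, below the next at 8.35. Tkt stood at 11.98 on TS_WB 6, below the next at 12.57, and at 12.03 on NT 2, above the next at 11.24. Gpx1, the cytosolic glutathione peroxidase, stood at 12.85 on NT 4, where the next had 12.74. Gpx4 stood at 12.04 on TS 5, below the next at 12.26.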

How the results depend on the processing

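In TS against NT no member was counted as reversed under any alternative. Gss, which was not called, differed by -0.016 on the probe set read and by 0.0005 on the other. With the replicate block, 3 members were higher and 11 lower, the glutathione transferases counted 5 lower in place of 8, and the other NRF2 targets higher counted 0 in place of 1, as they did without NT 5 (limma, 1 at an unadjusted p under 0.05 in each case). Same-numbered arrays deviated together with correlations of -0.13 to 0.13 in TS and NT. The correlations were -0.27 to 0.05 in TS_WB and TS and -0.05 to 0.14 in TS_WB and NT. An array's best match was its own number in 2 of 6 pairs of TS and NT. The same held in 0 of 6 pairs of TS_WB and TS and 4 of 6 of TS_WB and NT. Whether the numbers pair the samples cannot be told from these values. In TS_WB against TS, quantile normalization gave 5 glutathione transferases higher in place of 3. With the mean of a gene's varying probe sets the members higher counted 5 in place of 10, and the other NRF2 targets higher 1 in place of 3, and with the probe set of highest mean over NT and TS the members higher counted 6. In TS_WB against NT the mean gave 5 members higher in place of 12 and 1 other NRF2 target higher in place of 3. Single genes reversed in the comparisons with TS_WB: with the mean of probe sets, Gsta3 (-0.053), Gsto1 (0.35), Pgd (-0.28), Tkt (-0.998) and Cat (-0.53) against TS and Gsta3 (-0.66), Pgd (-0.57), Tkt (-0.96), Sod1 (-0.042) and Cat (-0.89) against NT; with the probe set chosen over NT and TS, Gsta3 (-1.25), Gss (-0.55), Sod1 (-0.84) and Cat (-2.03) against TS and Gsta3 (-1.85), Gss (-0.55), Sod1 (-1.10) and Cat (-2.33) against NT; after quantile normalization, Gpx1 (0.068) against TS and Txn1 (0.024) and Gpx1 (0.19) against NT. The cause was not tested. In TS against NT, Cat, Gpx2 and Gstt2 also lost their calls after median centring (limma adjusted p = 0.0603, 0.0581 and 0.063) and quantile normalization (0.0534, 0.0582 and 0.052). With 1 value per probe set and array and no measure of background, the size of a change near the array median is uncertain.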
